A study of Schizosaccharomyces pombe with 16 samples.

Results

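The genes described here encode the machinery of DNA replication in the fission yeast Schizosaccharomyces pombe. They were chosen by gene symbol: every probe set named mcm, orc, rfc, psf, sld, ssb or dpb with a number, plus a list of named polymerase, helicase, kinase, ligase and transcription factor genes. The rule found 46 probe sets of 46 genes among 4999 probe sets, of which 2917 carried a single gene symbol. No measured value entered the rule, but the members were chosen with earlier results of these data known. One symbol has since changed: the gene annotated as dpb3 is listed as bur6 in the RefSeq gene table, and BUR6 of budding yeast encodes a subunit of a transcription corepressor, so its place among the polymerase epsilon genes is doubtful.

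Replication begins where the origin recognition complex (ORC) binds DNA and loads the ring of Mcm proteins, the core of the replicative helicase. The kinase Hsk1 with its partner Dfp1, and the firing factors Sld3 and Drc1, bring Cdc45 and the GINS complex to that ring and start it. Polymerase alpha with primase lays down primers, polymerases delta and epsilon extend them on the sliding clamp, and replication protein A (RPA) coats the single strands between. Part of this machinery is transcribed as cells pass from G1 into S phase, under the factor MBF, which contains Cdc10. Starvation for nitrogen arrests fission yeast in G1, from which cells become quiescent.

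The study measured polyadenylated RNA on 16 biotin-labelled Affymetrix arrays. The wild type was strain L972, and fcp1-452 was a temperature-sensitive mutant of fcp1, which encodes a phosphatase of the RNA polymerase II tail. Both strains were grown in the minimal medium EMM2 (written +N) or kept in the same medium lacking nitrogen (-N), at 26 or 37 °C, which gave 8 groups. The labels do not state how long cells were held at 37 °C or starved, nor how many mutant clones were used.

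Each deposited value was a ratio of a probe set to its own median over 8 arrays, so no level was kept and genes cannot be ranked by expression. For all 4 fed groups (+N), the array of set 1 and the replicate 1 array of set 2 differed far less than replicates did (SD of the log2 difference 0.0572 to 0.0742, against 0.214 to 0.381), and each such pair was counted as 1 sample. The 12 samples that remained were 2 per fed group and 1 per starved group (-N). Ratios below are on the scale of set 2, where 1 is the probe set's median, and pairs of values give replicate 1 before replicate 2. Differences are log2 values ± SE from limma with the replicate number as a block, and a gene was called at an adjusted p under 0.05 over all 4999 probe sets. Titles of the starved arrays give no replicate number, so these arrays, all in set 1, were taken as replicate 1. "Rose" and "fell" are used for called genes. Nothing in the labels says that replicates were separate cultures, so p-values reflect only how these samples vary, and that variation may be technical. The share of cells in S phase and the RNA per cell cannot be told apart in such cultures. The fcp1 transcript ran from 0.748 to 1.13 with nitrogen and from 1.29 to 1.65 without. It differed between strains at 37 °C with nitrogen by -0.24 ± 0.12 (limma adjusted p = 0.169), and it rose by 0.72 ± 0.08 on starvation (adjusted p = 0.000577). That transcript does not test a temperature-sensitive protein.

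**Figure D1:**
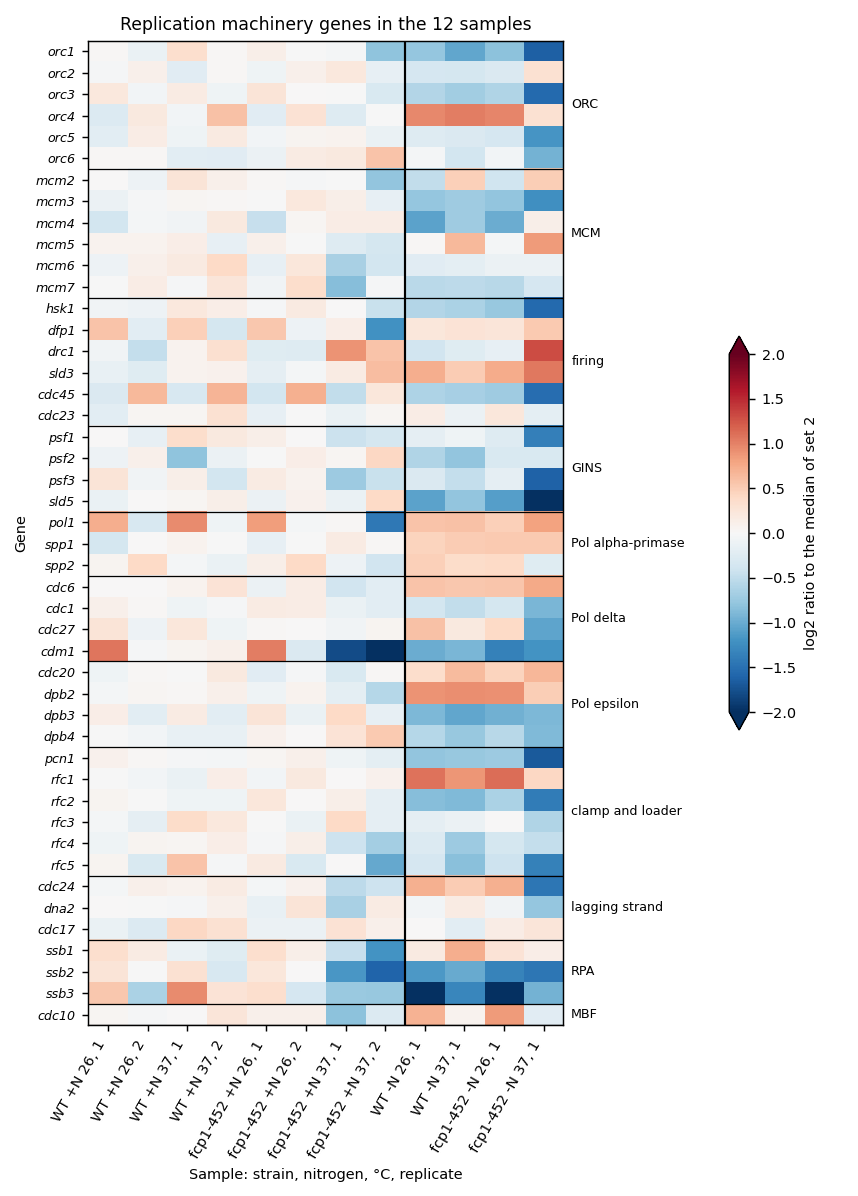
Heat map of the log2 ratio to the median of set 2 (colour, capped at -2 and 2) for the 46 replication genes (rows, by complex) in the 12 samples (columns, by strain, nitrogen, temperature and replicate). With nitrogen, the deepest blue cells are those of cdm1 in fcp1-452 at 37 °C; right of the black line, without nitrogen, red and blue rows stand side by side within most complexes.

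With nitrogen at 26 °C no replication gene was called between the strains. By limma, 0 of the 46 members passed, against 0% of all probe sets, and 0 members had an unadjusted p under 0.05, against 19 of 4999 probe sets. The differences of the members lay between -0.16 for cdm1 and 0.19 for pol1. With 2 samples a group, an SE of 0.35 for cdm1 leaves room for sizeable differences in that gene.

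In wild type, 37 °C with nitrogen moved no replication gene past the threshold. The members called were 0 of 46, against 0.54% of all probe sets, and 9 members had an unadjusted p under 0.05 in limma, against 1029 of 4999 probe sets. Their differences ran from -0.46 for psf2 to 0.66 for ssb3, with a median of 0.08 beside 0.01 for all probe sets. The ligase gene cdc17, whose product seals Okazaki fragments, came nearest. Its ratios were 0.917 and 0.826 at 26 °C and 1.33 and 1.24 at 37 °C, so both warm samples lay above both cool ones, with a difference of 0.56 ± 0.10 (limma adjusted p = 0.0675). Without replicate 1 or without replicate 2 of fcp1-452 at 37 °C, which enter this comparison through the shared spread only, 4 members were called, 3 higher and 1 lower, among 605 of 4999 probe sets.

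The same shift in fcp1-452 was followed by lower transcripts of 13 members and higher transcripts of 2. The 13 that fell are 28.3% of the members, against 22.1% of all probe sets, and the 2 that rose are 4.35%, against 17.8%. The share that fell is thus near that of the genome at large. The median difference was -0.30, beside -0.04 over all probe sets, and 33 of 46 members lay below 0. The 4 members lower by at least 2-fold were cdm1, ssb2, pol1 and ssb1, and the genes not called ran from -0.75 for ssb3 to 0.37 for mcm4. By complex, the test was passed downward by 2 of 3 RPA genes, 2 of 6 Mcm genes, 2 of 4 GINS genes, 2 of 4 polymerase delta genes and 1 of 3 polymerase alpha-primase genes. It was passed by 0 of 6 ORC genes and 0 of 4 polymerase epsilon genes. Counts depend on single samples: 4 members were called without replicate 1 and 2 without replicate 2 of fcp1-452 at 26 °C, and 23 without replicate 1 of fcp1-452 at 37 °C.

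**Figure D2:**
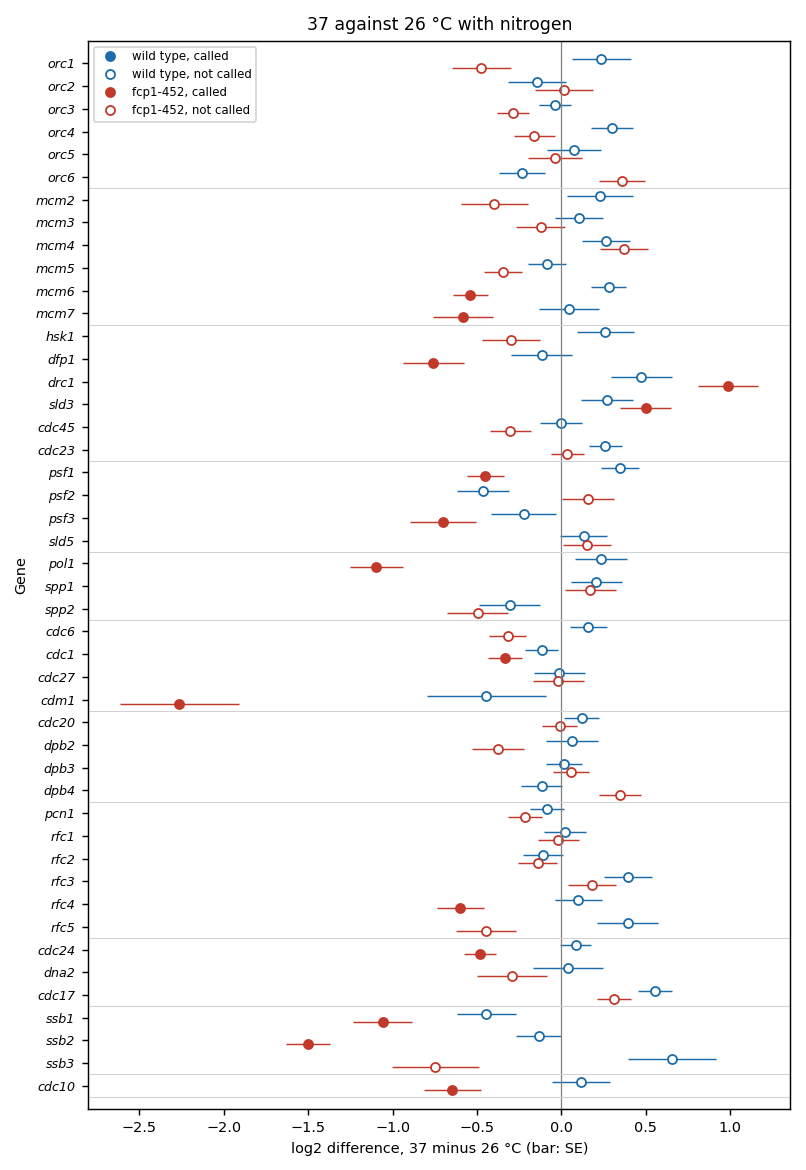
Log2 difference between 37 and 26 °C with nitrogen for each of the 46 genes (rows), in wild type (blue) and fcp1-452 (red); bars are the SE of the limma fit and filled points are called. No blue point is filled; the red points of cdm1 and ssb2 lie farthest left, at -2.26 and -1.50, and that of drc1 farthest right, at 0.99.

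The firing factors held both of the rises. The drc1 transcript, for a factor that cyclin-dependent kinase acts through, had ratios of 0.847 and 0.835 in fcp1-452 at 26 °C and 1.87 and 1.49 at 37 °C. In wild type it was 0.948 and 0.719 at 26 °C and 1.05 and 1.25 at 37 °C. The warm samples lay above the cool ones in both strains, and the difference was 0.99 ± 0.18 in fcp1-452 (limma adjusted p = 0.0096) and 0.47 ± 0.18 in wild type (adjusted p = 0.217). The strains' responses differed by 0.51 ± 0.25 (adjusted p = 0.223), so a larger response in the mutant was not shown.

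The other firing factor that rose was sld3. It stood at 0.88 and 0.977 in fcp1-452 at 26 °C and at 1.12 and 1.53 at 37 °C, beside 0.907, 0.847, 1.05 and 1.06 in wild type in the same order of temperatures. Its difference in the mutant was 0.50 ± 0.15 (limma adjusted p = 0.0472), close to the threshold. The regulatory partner of the Hsk1 kinase, dfp1, moved the other way. Its ratios were 1.46 and 0.934 at 26 °C and 1.1 and 0.434 at 37 °C in the mutant, and 1.48, 0.863, 1.39 and 0.781 in wild type. Replicate 1 exceeded replicate 2 in every one of these groups, the groups overlapped, and within replicates dfp1 fell by 0.76 ± 0.18 on the log2 scale (adjusted p = 0.0222). The kinase gene hsk1 itself differed by -0.30 ± 0.17 (adjusted p = 0.209), and cdc45 by -0.30 ± 0.12 (adjusted p = 0.0984).

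Among the helicase genes, mcm6 fell in the mutant and was not called in wild type. It had ratios of 0.897 and 1.18 in fcp1-452 at 26 °C and of 0.641 and 0.779 at 37 °C, with 0.933 and 1.07 in wild type at 26 °C and 1.13 and 1.31 at 37 °C. The warm mutant samples were the lowest of the 8. The change was -0.54 ± 0.10 in the mutant (limma adjusted p = 0.0112) and 0.28 ± 0.10 in wild type (adjusted p = 0.209), and these responses differed by -0.82 ± 0.15 (adjusted p = 0.0284). The other Mcm gene that fell was mcm7, by 0.58 ± 0.18 on the log2 scale (adjusted p = 0.0465). The remaining 4 Mcm genes ran from -0.40 for mcm2 to 0.37 for mcm4.

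In GINS, which joins the Mcm ring to form the moving helicase, the subunits split. The psf1 ratios were 1.09 and 1 at 26 °C and 0.744 and 0.784 at 37 °C in the mutant, and 1.01, 0.888, 1.27 and 1.14 in wild type. The mutant fell by 0.45 ± 0.11 on the log2 scale (limma adjusted p = 0.0247), wild type changed by 0.35 ± 0.11 (adjusted p = 0.169), and the responses differed by -0.80 ± 0.16 (adjusted p = 0.0369). A second GINS gene, psf3, was at 1.13 and 1.04 in the cool and 0.604 and 0.736 in the warm mutant samples, and at 1.2, 0.955, 1.08 and 0.775 in wild type. Its groups did not overlap in the mutant, but the share of all probe sets that did likewise was not counted. The difference was -0.70 ± 0.19 (adjusted p = 0.0343), a call kept in 6 of 13 alternative settings. The other GINS genes, psf2 and sld5, differed by 0.16 and 0.15, and neither was called.

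Polymerase genes held the widest response of all 46. For cdm1, the smallest subunit of polymerase delta, the mutant ratios were 2.04 and 0.819 at 26 °C and 0.288 and 0.252 at 37 °C. Wild type gave 2.1 and 0.989 at 26 °C and 1.04 and 1.07 at 37 °C. The warm mutant samples held the 2 lowest values of the 8, and the fall was -2.26 ± 0.35 (limma adjusted p = 0.00628). Replicates of this gene were far apart at 26 °C in both strains, and the test of the difference in response gave -1.82 ± 0.50 (adjusted p = 0.068). The catalytic subunit of that polymerase, cdc6, differed by -0.32 ± 0.11 in the mutant (adjusted p = 0.0646), and cdc1 by -0.33 ± 0.10 (adjusted p = 0.0453).

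The gene pol1, for the catalytic subunit of polymerase alpha, had mutant ratios of 1.78 and 0.971 at 26 °C and of 1.02 and 0.372 at 37 °C. In wild type they were 1.65 and 0.798 at 26 °C and 1.93 and 0.944 at 37 °C. Replicate 1 was above replicate 2 by 1.10 log2 units on average, so the groups overlapped while each replicate pair showed the fall. It was -1.10 ± 0.16 with the replicate block (limma adjusted p = 0.00487) and was not called without it (adjusted p = 0.326). The responses of the strains differed by -1.33 ± 0.22 (adjusted p = 0.0259). The primase genes spp1 and spp2 gave 0.17 and -0.50, neither called.

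All 3 RPA genes had lower values in the warm mutant. The middle subunit, ssb2, stood at 1.17 and 1.01 at 26 °C and at 0.448 and 0.328 at 37 °C in fcp1-452, and at 1.2, 0.99, 1.23 and 0.802 in wild type. Its fall of -1.50 ± 0.13 (limma adjusted p = 0.00196) was the only call of this comparison that held under all 13 alternative settings. The strains' responses differed by -1.37 ± 0.19 (adjusted p = 0.0187). The large subunit, ssb1, gave 1.27 and 1.09 and then 0.73 and 0.437 in the mutant, against 1.27, 1.12, 0.908 and 0.843 in wild type. Both strains were lower at 37 °C, by -1.06 ± 0.18 in fcp1-452 (adjusted p = 0.00749) and -0.45 ± 0.18 in wild type (adjusted p = 0.231). The small subunit, ssb3, gave 1.26 and 0.796 and then 0.599 and 0.594 in the mutant, against 1.45, 0.647, 1.93 and 1.2 in wild type, and was not called (-0.75 ± 0.26, adjusted p = 0.0658).

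Lagging-strand processing, the clamp loader and MBF had 1 call each. The gene cdc24, whose product works with the nuclease Dna2 on lagging strands, was at 0.97 and 1.06 and then 0.698 and 0.754 in the mutant. Wild type stayed between 0.978 and 1.12. The fall was -0.48 ± 0.09 (limma adjusted p = 0.0119), and the responses differed by -0.57 ± 0.13 (adjusted p = 0.0498), at the threshold. The clamp loader gene rfc4 fell by 0.60 ± 0.14 on the log2 scale (adjusted p = 0.02), while the clamp gene pcn1 differed by -0.21 ± 0.10 (adjusted p = 0.141). The MBF subunit gene cdc10 stood at 1.08 and 1.07 at 26 °C and at 0.567 and 0.831 at 37 °C in the mutant, with wild type between 0.983 and 1.18. Its fall was -0.65 ± 0.17 (adjusted p = 0.0303).

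**Figure D3:**
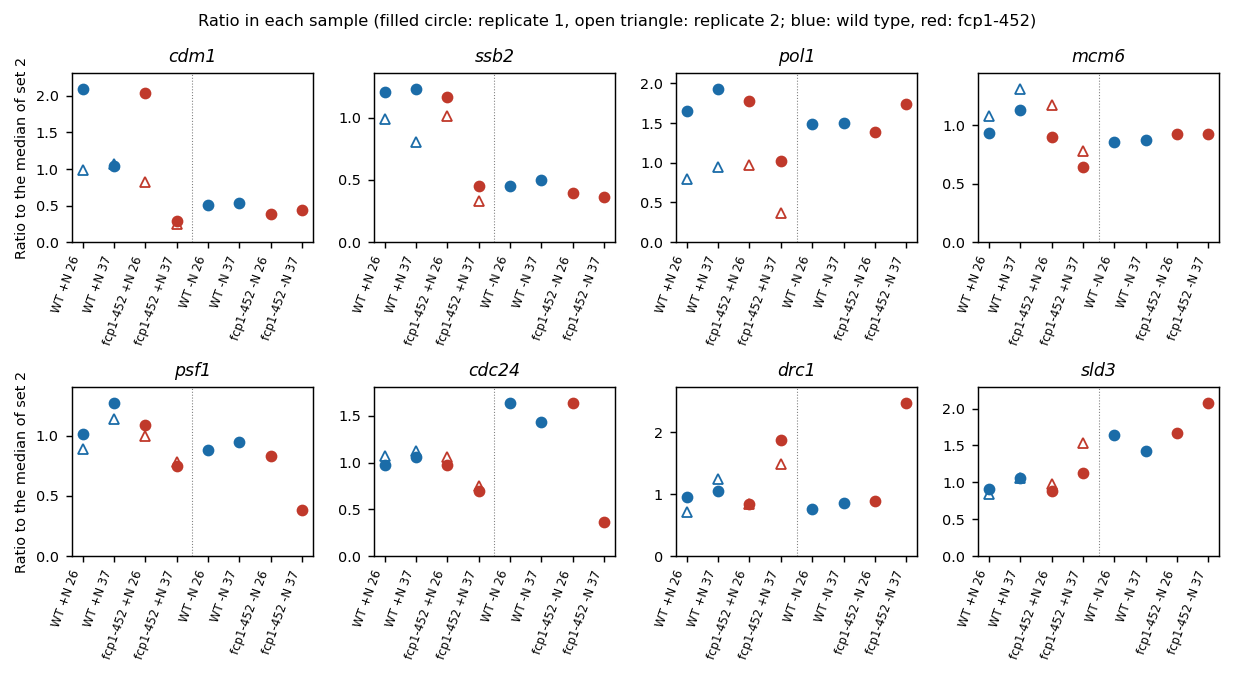
Ratio to the median of set 2 (linear axis from 0) of 8 replication genes in each of the 12 samples; circles are replicate 1, triangles replicate 2, blue wild type and red fcp1-452, with -N groups right of the dotted line. For cdm1, ssb2, mcm6, psf1 and cdc24 both warm mutant samples with nitrogen lie below the other 6 samples with nitrogen; for pol1 each does so within its replicate; drc1 and sld3 reach their highest values in the mutant at 37 °C without nitrogen.

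Set directly against wild type at 37 °C with nitrogen, fcp1-452 had lower values for 13 members and higher values for 3. These are 28.3% lower, against 19.2% of all probe sets, and 6.52% higher, against 14.7%. This comparison shares the warm mutant samples with the one above, so it is no separate evidence for the genes both call. All 3 RPA genes were among the lower ones, at -1.37 ± 0.13 for ssb2 (limma adjusted p = 0.00304), -1.35 ± 0.26 for ssb3 and -0.63 ± 0.18 for ssb1. The others were cdm1, pol1, mcm6, rfc5, cdc10, psf1, rfc4, orc1, cdc24 and cdc6, from -1.97 for cdm1 to -0.47 for cdc6.

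The 3 higher members were spread over ORC, GINS and polymerase epsilon. The ORC gene orc6 was at 0.867 and 0.858 in warm wild type and 1.15 and 1.49 in the warm mutant, a difference of 0.60 ± 0.14 (limma adjusted p = 0.0223). The GINS gene psf2 was at 0.574 and 0.918 in wild type and 1.03 and 1.33 in the mutant (0.69 ± 0.15, adjusted p = 0.0218). The polymerase epsilon subunit gene dpb4 was at 0.905 and 0.898 in wild type and 1.2 and 1.44 in the mutant (0.55 ± 0.12, adjusted p = 0.0216). In all 3 the groups did not overlap, as in 5 members overall (10.9%, against 20.5% of all probe sets). For psf2 the wild-type values at 26 °C were 0.931 and 1.08, above the warm ones. Without replicate 1 of warm wild type 4 members were called and without replicate 2 there were 3. Without either replicate of fcp1-452 at 26 °C there were 10. With quantile normalization, all probe sets split into 339 higher and 278 lower, where the fit above gave 736 and 962.

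The test of whether the response to 37 °C differed between strains called 5 members, all toward lower values in the mutant: ssb2, pol1, mcm6, psf1 and cdc24. They are 10.9% of the members, against 7.68% of all probe sets, and 0 were called higher, against 4.12%. In all, 18 of 46 members had an unadjusted p under 0.05, as had 1585 of 4999 probe sets. The same test called 0 members without any single sample of wild type or of fcp1-452 at 26 °C, 18 without replicate 1 and 10 without replicate 2 of fcp1-452 at 37 °C, 0 without the replicate block and 0 with quantile normalization.

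Genes of S phase outside the rule were called in the same comparison. Of 22 other measured replication genes, 7 fell and 2 rose in fcp1-452 at 37 °C, with a median of -0.16, where 22.1% of all probe sets fell and 17.8% rose. The licensing factor gene cdt1 fell, with a log2 difference of -4.05 ± 0.37 (limma adjusted p = 0.00201), cdt2, for the adaptor that has Cdt1 destroyed, gave -2.71 ± 0.22 (adjusted p = 0.00158), and dcc1, of an alternative clamp loader, gave -1.18 ± 0.11 (adjusted p = 0.00214). Of 12 genes of MBF control and nucleotide supply, 8 fell and 3 rose, with a median of -1.17. The ribonucleotide reductase gene cdc22 gave -3.08 ± 0.22, the S phase cyclin gene cig2 -2.48 ± 0.18 (both limma adjusted p = 0.00127), and nrm1, a corepressor of MBF, -1.06 ± 0.11 (adjusted p = 0.0022). Of 12 core histone probe sets, 10 fell and 0 rose, with a median of -1.37 and a lowest value of -1.87. The histone probe sets with the smallest p were those of hht1, at -1.59 and -1.64, and hta2, at -1.21. Histone genes share near-identical sequence, so probe sets may not separate their copies. In wild type none of these 3 lists had a gene called, though the 12 histone probe sets ran from -0.71 to -0.14 there. The responses of the strains were called different for 3 of those 12, all lower in the mutant. The same test called 4 of the 22 other replication genes, all lower. Of the 12 genes of MBF control and nucleotide supply it called 6 lower and 1 higher. Over all probe sets it called 7.68% lower and 4.12% higher.

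Removal of nitrogen was followed by calls in 32 members, in both directions. Averaged over strains and temperatures, 22 members fell and 10 rose. The fallen are 47.8%, against 38.2% of all probe sets, and the risen 21.7%, against 33.9%. The median difference was -0.27, beside -0.03 over all probe sets. Each starved group had 1 sample, so the test takes its spread from the groups with nitrogen and assumes that starved samples vary alike. Taken condition by condition on single arrays, 19 members were lower in all 4 (41.3%, against 31.1% of all probe sets), 8 were higher in all 4 (17.4%, against 27.5%) and 19 were mixed. The average called 30 to 32 members whichever condition was left out.

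**Figure D4:**
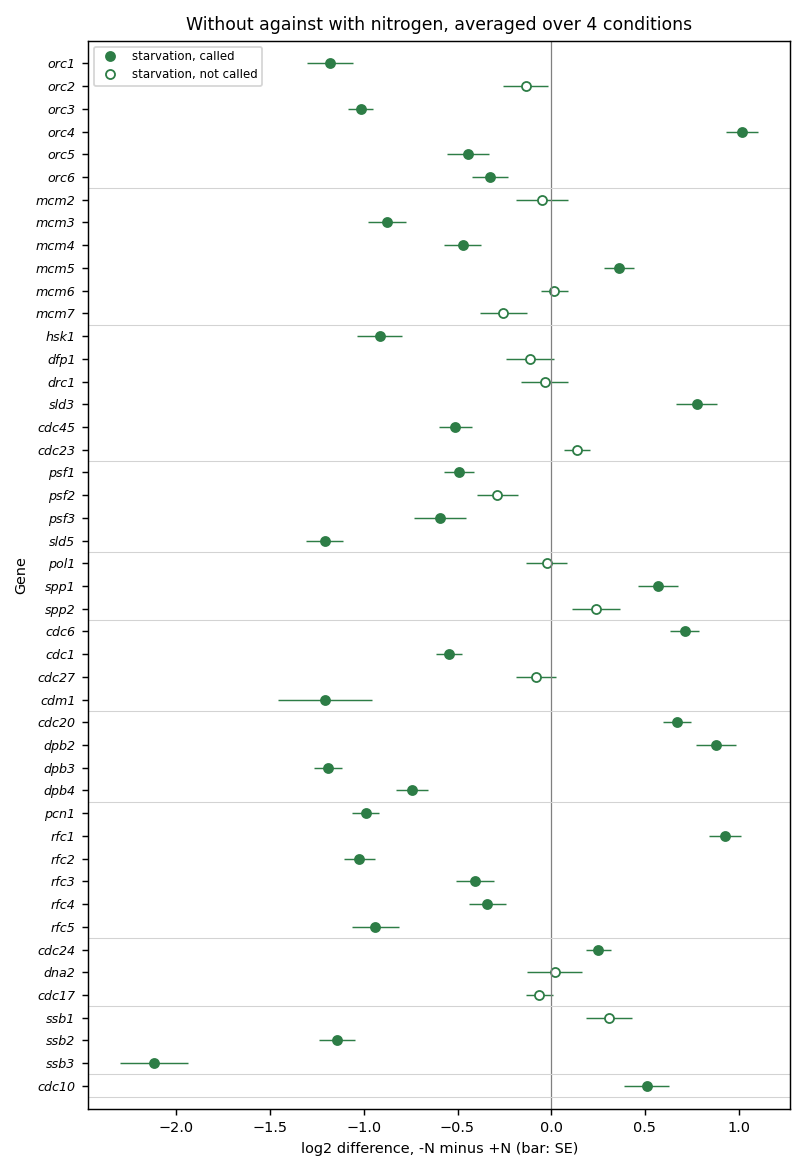
Log2 difference between samples without and with nitrogen, averaged over strain and temperature, for each of the 46 genes (rows, by complex); bars are the SE of the limma fit and filled points are called. Called points lie on both sides of 0 within ORC, Mcm, the firing factors, polymerases delta and epsilon and the clamp loader; ssb3 is lowest at -2.12 and orc4 highest at 1.02.

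ORC held calls in both directions. The gene orc4, whose product binds AT-rich origin DNA in this yeast, stood at 1.94 and 2.04 in starved wild type at 26 and 37 °C, and at 1.97 and 1.24 in starved fcp1-452. With nitrogen its 8 values ran from 0.831 to 1.5, a range that holds the starved mutant at 37 °C. It rose by 1.02 ± 0.09 (limma adjusted p = 0.000176). The other ORC genes called all fell on average: orc1 at -1.18 ± 0.12, orc3 at -1.02 ± 0.07, orc5 at -0.44 ± 0.11 and orc6 at -0.33 ± 0.10. By single arrays orc6 differed by -0.10 and -0.18 in wild type at 26 and 37 °C, and by 0.10 and -1.14 in fcp1-452. For orc5 the values were -0.08, -0.14, -0.27 and -1.29 in the same order. Neither of these calls held with quantile normalization. The orc2 gene differed by -0.14 ± 0.12 (adjusted p = 0.348).

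The Mcm genes, whose products act as 1 ring, did not move together either. The mcm3 and mcm4 genes fell, at -0.88 ± 0.10 and -0.47 ± 0.10, and mcm5 rose by 0.36 ± 0.08 (limma adjusted p = 0.00786). For mcm5 the starved values were 1.01 in wild type and 0.97 in the mutant at 26 °C, and 1.57 and 1.81 at 37 °C, so the 26 °C samples sat within the range with nitrogen, 0.782 to 1.09. The mcm2, mcm6 and mcm7 genes gave -0.05, 0.02 and -0.25, none called. With quantile normalization mcm4 changed sign, to 0.06, and was not called.

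Of the firing factors, sld3 rose by 0.78 ± 0.11 (limma adjusted p = 0.00121). It was at 1.65 and 1.42 in starved wild type at 26 and 37 °C and at 1.67 and 2.08 in the mutant. The range with nitrogen, 0.847 to 1.53, reached above only the starved wild type at 37 °C. The kinase gene hsk1 fell by 0.92 ± 0.12 on the log2 scale, with starved values of 0.34 to 0.668. The cdc45 gene fell by 0.51 ± 0.09, although it changed sign to 0.24 with quantile normalization. In GINS, 3 of 4 genes fell and 0 rose, where 38.2% of all probe sets fell and 33.9% rose. The sld5 gene stood at 0.475 and 0.578 in starved wild type and at 0.466 and 0.218 in the mutant, all below the lowest value with nitrogen, 0.915, and fell by 1.21 ± 0.10 (adjusted p = 0.000155). The psf3 and psf1 genes fell too, at -0.59 and -0.49. The calls of hsk1, psf3 and psf1 were lost with quantile normalization.

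Among the polymerase genes, 4 rose and 4 fell, the doubtful dpb3 counted with them, where 33.9% of all probe sets rose and 38.2% fell. The catalytic gene of polymerase delta, cdc6, was between 1.46 and 1.69 in the 4 starved samples and between 0.763 and 1.2 with nitrogen, and rose by 0.71 ± 0.08 (limma adjusted p = 0.00044). That of polymerase epsilon, cdc20, was between 1.27 and 1.58, against 0.813 to 1.14 with nitrogen (0.67 ± 0.07, adjusted p = 0.000457). The primase gene spp1 was between 1.36 and 1.43 (0.57 ± 0.11, adjusted p = 0.00406), above its range with nitrogen of 0.78 to 1.11. The second polymerase epsilon subunit gene, dpb2, stood at 1.86, 1.91, 1.88 and 1.41, against 0.677 to 1.07 (0.88 ± 0.11, adjusted p = 0.000743). None of these 4 genes overlapped between starved and fed samples. Over all members, 5 had every starved sample above every fed one (10.9%, against 13% of all probe sets) and 12 had every one below (26.1%, against 14.8%).

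Of the polymerase genes that fell, cdm1, cdc1 and dpb4 encode accessory subunits, while the place of dpb3 among them is doubtful. Not all accessory subunits fell: dpb2 rose by 0.88 on average. The small polymerase delta subunit gene cdm1 was at 0.503 and 0.532 in starved wild type and at 0.39 and 0.434 in the mutant, and fell by 1.21 ± 0.25 (limma adjusted p = 0.00597). Its warm fed mutant samples, 0.288 and 0.252, were lower still. In fcp1-452 at 37 °C the starved array was therefore above the fed one, by 0.61 on the log2 scale, while the other 3 conditions gave -1.02 to -2.38. The dpb3 probe set, listed as bur6, was at 0.537, 0.487, 0.514 and 0.534, all below the lowest fed value of 0.865 (-1.19 ± 0.08, adjusted p = 7.39e-05). The cdc1 and dpb4 genes fell too, at -0.55 and -0.74.

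All genes of the clamp and its loader were called, 1 higher and 5 lower, where 33.9% of all probe sets rose and 38.2% fell. The large loader subunit gene rfc1 stood at 2.13 and 1.85 in starved wild type and at 2.18 and 1.33 in the mutant, above every fed value (0.909 to 1.14), and rose by 0.93 ± 0.09 (limma adjusted p = 0.000245). The other 4 loader genes all fell on average: rfc2 at -1.02 ± 0.08, rfc5 at -0.94 ± 0.13, rfc3 at -0.41 ± 0.10 and rfc4 at -0.34 ± 0.10. By single arrays rfc3 differed by -0.13 and -0.46 in wild type at 26 and 37 °C, and by 0.03 and -1.07 in fcp1-452. The calls of rfc3 and rfc5 were lost without the replicate block, and those of rfc3 and rfc4 with quantile normalization. The clamp gene pcn1 fell by 0.99 ± 0.07 (adjusted p = 0.0001).

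RPA gave the deepest fall. The small subunit gene ssb3 was at 0.199 and 0.405 in starved wild type at 26 and 37 °C and at 0.141 and 0.52 in the mutant, all below the lowest fed value of 0.594. It fell by 2.12 ± 0.18 on the log2 scale (limma adjusted p = 0.000184). By single arrays the difference was -2.83 and -2.32 in wild type and -3.17 in fcp1-452 at 26 °C, and -0.15 in fcp1-452 at 37 °C. The middle subunit gene ssb2 was between 0.366 and 0.499 in all 4 starved samples and fell by 1.14 ± 0.09 (adjusted p = 0.000156). The warm fed mutant samples were at 0.448 and 0.328, and in that condition the single arrays differed by -0.32, against -1.26 to -1.59 in the other 3. The large subunit gene ssb1 differed by 0.31 ± 0.12 (adjusted p = 0.0664), the highest among the genes not called, of which psf2 was lowest at -0.29.

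The MBF gene cdc10 was at 1.62 and 1.05 in starved wild type at 26 and 37 °C and at 1.8 and 0.851 in the mutant. The 26 °C samples lay above all fed values and the 37 °C samples within them, and on average it rose by 0.51 ± 0.12 (limma adjusted p = 0.0105). The cdc24 gene was above all fed values in 3 starved samples, at 1.64 and 1.43 in wild type at 26 and 37 °C and 1.63 in the mutant at 26 °C, and stood at 0.366 in the starved mutant at 37 °C. Its averaged rise of 0.25 ± 0.07 (adjusted p = 0.0161) thus joins opposite values and was lost in 4 of the 8 fits without 1 fed sample. Of the other lists, 5 of 22 further replication genes rose and 9 fell. For MBF control and nucleotide supply 6 of 12 genes rose and 6 fell, and 6 of 12 core histone probe sets rose and 0 fell. Over all probe sets 33.9% rose and 38.2% fell.

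Single arrays allow each starved condition to be described, without a test. Members at least 2-fold lower on starvation numbered 4 of 46 in wild type at 26 °C (8.7%, against 14.3% of all probe sets), 6 in wild type at 37 °C (13%, against 14.7%), 4 in fcp1-452 at 26 °C (8.7%, against 15.5%) and 14 in fcp1-452 at 37 °C (30.4%, against 18.8%). Those at least 2-fold higher were 2 in each condition (4.35%), against 12.6%, 13.9%, 12.9% and 20.6% of all probe sets. The starved fcp1-452 array at 37 °C also had the widest spread over all probe sets, an SD of 1.40 log2 units, against 1.03 to 1.11 in the other starved samples. The part of that spread in the members' values was not tested.

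Whether starvation acted differently in the mutant was then tested at each temperature. At 26 °C, 0 members were called, against 0.1% of all probe sets, and 0 members had an unadjusted p under 0.05, against 54 probe sets. At 37 °C, 8 members were called toward higher values in the mutant and 7 toward lower, which is 17.4% and 15.2%, against 20.9% and 17.7% of all probe sets. These shares are near or below the background. The higher ones include ssb3 (1.71 ± 0.45, limma adjusted p = 0.0309), pol1 (1.35 ± 0.27, adjusted p = 0.0143), ssb2 and mcm6, genes that were low in the fed mutant at 37 °C, a group this test shares. The lower ones were sld5 (-1.47 ± 0.24, adjusted p = 0.00838), cdc24 (-1.38 ± 0.16, adjusted p = 0.00399), orc6, cdc27, pcn1, orc3 and psf1. Leaving out either replicate of fcp1-452 at 37 °C gave 24 calls, and leaving out any other fed sample gave 4 to 8.

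Between the starved strains themselves, 8 members were lower in fcp1-452 and 1 was higher, averaged over temperature (17.4%, against 18.6% of all probe sets, and 2.17%, against 18.8%). The average hides the temperature. At 26 °C the starved arrays differed by less than 2-fold for all 46 members, the largest size being 0.49 for ssb3, where 0.46% of all probe sets passed 2-fold. At 37 °C, 5 members were at least 2-fold lower in the mutant (10.9%, against 17.5%) and 1 was higher (2.17%, against 17%). The lower ones were cdc24 at -1.97, sld5 at -1.41, psf1 at -1.29, cdc27 at -1.24 and psf3 at -1.14, of which 3 belong to GINS. The higher one was drc1, at 1.55, with 2.48 in the starved mutant and 0.85 in starved wild type. Averaged over temperature, marker genes of mating type differed too. In the starved mutant 7 of 7 probe sets of M cell genes were lower (median -3.27). Both P cell genes, map2 and map3, were higher (median 2.53). The P cell averages hide the temperature as well. Their starvation responses differed between strains by 2.15 to 6.71 at 26 °C and by -0.48 to 1.34 at 37 °C. With nitrogen, the M cell probe sets differed between strains by -2.70 to 0.09 at 26 °C, with 0 called. At 37 °C they then ran from -5.29 to 0.99, 1 called lower and 2 higher, against 19.2% and 14.7% of all probe sets. The labels give no mating type, ratios do not show whether a marker is present, and the part of mating type in these results was not tested. The averaged count was 5 without either replicate of either strain at 26 °C with nitrogen and 20 without either replicate of the fed mutant at 37 °C.

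**Figure D5:**
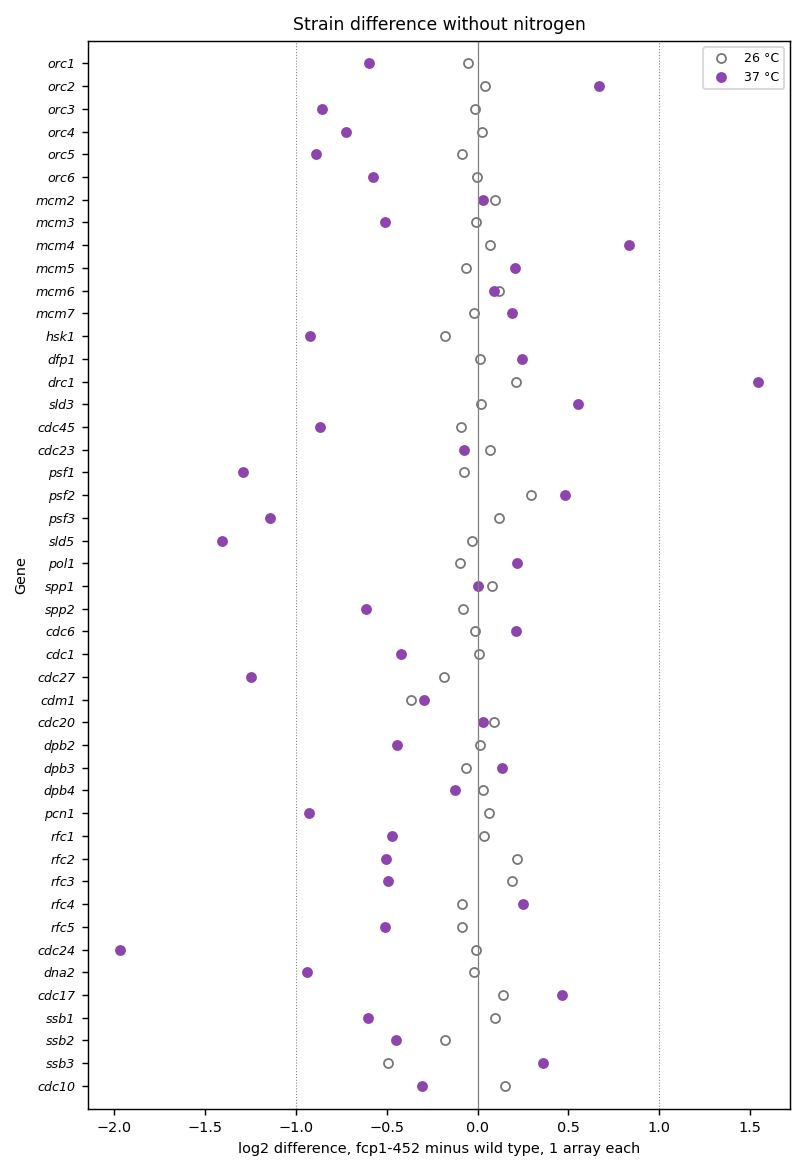
Log2 difference between fcp1-452 and wild type without nitrogen for each of the 46 genes (rows), from 1 array each at 26 °C (open) and at 37 °C (filled), with no error available; dotted lines mark 2-fold. The open points stay within 0.50 of 0, and the filled points reach from -1.97 for cdc24 to 1.55 for drc1.

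Heat in starved cells, averaged over strains, was followed by lower values of 15 members and higher values of 5. These are 32.6%, against 21.8% of all probe sets, and 10.9%, against 24.3%. The higher ones were 3 Mcm genes, mcm2 (0.94 ± 0.20, limma adjusted p = 0.0128), mcm5 (0.77 ± 0.11, adjusted p = 0.00416) and mcm4 (0.74 ± 0.14, adjusted p = 0.00942), with ssb3 (1.46 ± 0.26, adjusted p = 0.0072) and drc1 (0.81 ± 0.18, adjusted p = 0.0147). The starved mcm2 values were 0.708 and 1.39 in wild type at 26 and 37 °C and 0.757 and 1.41 in the mutant, nearly the same step in both strains. Single arrays of drc1 differed by 0.15 in wild type and 1.48 in fcp1-452, and those of mcm4 by 0.35 and 1.12. For mcm5 they gave 0.63 and 0.90, and for ssb3 1.03 and 1.88. By single arrays, 1 member passed 2-fold in wild type, ssb3 at 1.03 (2.17%, against 5.76% of all probe sets either way). In fcp1-452, 3 were at least 2-fold higher (6.52%, against 19.1%) and 6 lower (13%, against 17.1%). Of the members that fell, those with the lowest averages were cdc24, cdc27, cdc10 and psf3, at -1.18 ± 0.09, -0.92 ± 0.15, -0.85 ± 0.17 and -0.80 ± 0.19. Their single arrays differed by strain: cdc24 gave -0.20 in wild type and -2.16 in fcp1-452, cdc27 -0.39 and -1.45, psf3 -0.18 and -1.43, and cdc10 -0.62 and -1.08. This difference between strains was not tested. With quantile normalization 0 members were called in this comparison, in that of the starved strains, or in that of starvation by strain at 37 °C.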

How the data were processed

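The deposited values are linear ratios. Per the submitters' processing notes RMA was used (no version stated), and within each set of 8 arrays every probe set has a median ratio of 1, a step seen in the deposited values. Depth and signal over background are unknown, so the number of arrays limits the precision. The mean log2 difference between sets over the 4 fed groups was taken off set 1, probe set by probe set, and duplicates were averaged. The log2 ratios of 12 samples went into limma (3.58.1, under R 4.3.3), lmFit with eBayes, with 8 group means and the replicate block. Residual degrees of freedom were 3 and prior degrees of freedom 2.75. P-values were adjusted by Benjamini-Hochberg over 4999 probe sets in 10 comparisons, and 8 comparisons of single arrays used a 2-fold limit. The replicate numbers pair the samples: the difference between replicates correlated at 0.640 to 0.870 over 6 pairs of groups. The code was tested on simulated data. Values in each sample were given for members called in strain by temperature, the largest calls in heat and starvation, cdc10, and members moving against most others. From the lists, the 3 genes with the smallest p in heated fcp1-452 were named. The members and lists were chosen with earlier results of these data known. Groups came from titles and source names, since the sample descriptions name a single condition. All 46 members matched the RefSeq table of assembly ASM294v3, used for names only, and no sequence or coordinate was used.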

Additional observations from a re-analysis of the deposited data

Results flagged for a closer look

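The response of replication genes to a change of condition differed between wild type and fcp1-452 for 20 pairs of gene and condition, by limma's interaction term with adjustment over all probe sets. For the response to 37 °C, 10.9% of members were called lower and 0% higher, against 7.68% and 4.12% of all probe sets. For the response to starvation at 37 °C, 17.4% were called higher and 15.2% lower, against 20.9% and 17.7%. With nitrogen, the log2 response to 37 °C differed (fcp1-452 minus wild type) for pol1 by -1.33, ssb2 by -1.368, psf1 by -0.7966, mcm6 by -0.8201 and cdc24 by -0.5667. The adjusted p-values ran from 0.0187 for ssb2 to 0.0498 for cdc24. At 37 °C, the log2 response to starvation was higher in fcp1-452 than in wild type for pol1 (1.35), cdc6 (0.6796), drc1 (1.003), cdc17 (0.6264), ssb2 (0.9262), mcm6 (0.876), rfc4 (0.8861) and ssb3 (1.713). It was lower in fcp1-452 for orc6 (-1.175), orc3 (-0.6624), sld5 (-1.474), psf1 (-0.6347), cdc24 (-1.382), cdc27 (-1.171) and pcn1 (-0.8121). The adjusted p-values ran from 0.00399 for cdc24 to 0.0491 for drc1. Each starved group had 1 sample, so the second set of differences rests on 2 starved arrays and on a spread taken from the groups with nitrogen.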

How the results depend on the processing

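The calls rest on few samples and on the pairing by replicate number. Members called in heated fcp1-452, between strains at 37 °C, in strain by temperature, in strain by nitrogen at 37 °C, between starved strains and in heated starved cells numbered 15, 16, 5, 15, 9 and 20 with the replicate block, and 3, 1, 0, 1, 1 and 5 without it. Quantile normalization gave 7, 5, 0, 0, 0 and 0. It also gave 17 of 32 starvation calls and 2 in heated wild type, where the fit gave 0, and it turned mcm4 to 0.0611 and cdc45 to 0.2377 in starvation. Fitting 16 arrays with a set term gave 1 call in heated wild type and 9 in strain by temperature. Without the replicate block 29 of the 32 starvation calls were kept, and those of cdc24, rfc3 and rfc5 were lost. Leaving out each fed sample in turn gave 0 to 4 members in heated wild type, 2 to 23 in heated fcp1-452, 3 to 23 between strains at 37 °C, 0 to 18 in strain by temperature and 28 to 35 in starvation. It gave 4 to 24 in strain by nitrogen at 37 °C, 5 to 20 between starved strains and 14 to 29 in heated starved cells, and 0 throughout in the other comparisons. The causes were not tested. In those fits a lone sample is assumed to vary like the other groups. Of the 32 starvation calls, 28 were kept in every fit without 1 sample and 14 in all 13 settings. Of the 15 calls in heated fcp1-452, 2 (cdm1 and ssb2) were kept in every fit without 1 sample. Leaving out a condition from the starvation average was chosen after seeing the data. Ratios without signal over background do not show which transcripts are near the detection limit.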
